A study of Mus musculus with 36 samples.

Results

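The comparison described here set mice that smelled acetophenone against mice that smelled no odor, over every gene in the count table. Its members are 6 of the 36 samples of the series, 3 libraries from mice exposed to acetophenone and the 3 no-odor libraries handled in the same set. The acetophenone mice received 10 µL of the undiluted odorant on filter paper, and the controls received empty filter paper. All were wild-type C57BL/6J males of 8 weeks, kept for 4 h in odor-free housing and then exposed for 90 min. RNA was taken from the olfactory epithelium by immunoprecipitation with an antibody against phosphorylated ribosomal protein S6 and was sequenced. The libraries of each group are labelled as biological replicates, and whether a library held tissue of 1 mouse or of several is not given in the sources used here. A pair of further groups of the set, 3 libraries with decanal and 3 with the acetophenone-decanal mixture, shared the model, so that 12 libraries gave the estimate of spread. The table lists 57010 gene identifiers, of which 19514 had enough counts to be tested, and it holds 1094 protein-coding olfactory receptor genes, of which 868 were tested.

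Each mature olfactory sensory neuron is known to express a single olfactory receptor gene out of a large family, and an odorant is recognised by the set of receptors it binds. Binding activates the G protein that contains Gnal, then the adenylyl cyclase Adcy3 and the cyclic nucleotide-gated channel built around Cnga2. Activity of the neuron leads to phosphorylation of ribosomal protein S6, so that precipitating ribosomes with the phosphorylated form enriches the RNA of active neurons, the RNA of their receptor included. A higher level of a receptor gene in the precipitate is the readout the method was made for. In such bulk RNA, more neurons of a type and more precipitated RNA per neuron cannot be told apart.

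The control libraries held 21751377 to 23718456 counts and the acetophenone libraries 23449175 to 23581821. Receptor genes took 0.392%, 0.340% and 0.367% of the counts in control libraries 1 to 3. They took 0.520%, 0.597% and 0.507% in acetophenone libraries 1 to 3, all above the controls. Levels are given as CPM, counts relative to library size after scaling of the libraries. Olfactory marker protein, Omp, the defining gene of mature olfactory sensory neurons, was abundant in the controls, at 4460.5, 4014 and 4841 CPM, and stood at 6725, 10911 and 6829 CPM with acetophenone. The p-values below rest on the spread within groups over all 12 libraries of the set, those with decanal and with the mixture included. The sum over 14 markers of mature sensory neurons was 11171 to 12682 CPM in the controls and 17338, 27590 and 18230 CPM in acetophenone libraries 1 to 3. The sum over 20 red blood cell genes was 16478 to 21986 CPM in the controls, 14122 CPM in acetophenone library 1 and 3381 and 3578 CPM in libraries 2 and 3. Acetophenone library 2 thus held the most neuronal RNA, and libraries 2 and 3 the least blood RNA. The part of these shifts in the results below was not tested.

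The comparison was first read at 5 receptor genes known from earlier work to respond to acetophenone. Of these, 4 were tested and all 4 rose, by log2 changes of 4.44 to 4.72, and each of them lay above its controls in every library. Olfr983 (ENSMUSG00000044205) stood at 1.51, 1.63 and 1.74 CPM in the controls and at 37.8, 27.3 and 42.6 CPM with acetophenone (log2 change 4.46, SE 0.401, adjusted p 4.1e-05, edgeR quasi-likelihood test with Benjamini-Hochberg adjustment over all genes tested). Olfr145 went from 1.55, 2.29 and 1.52 CPM to 54.1, 23.3 and 49.6 CPM. Olfr923 went from 0.954, 1.01 and 1.43 CPM to 53.0, 15.6 and 21.6 CPM. In both, acetophenone library 2 was the lowest of its group. Olfr160, also called M72, went from 0.874, 0.573 and 0.261 CPM to 12.9, 14.3 and 10.6 CPM (log2 change 4.44, SE 0.463, adjusted p 0.000104 in edgeR).

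The 5th gene, Olfr151 or M71, is the close relative of Olfr160. It had 0 counts in all 12 libraries, which allows a level of up to 0.0429 CPM over the 3 acetophenone libraries by counting error alone (3 counts over the group). GENCODE vM21 lists it as a polymorphic pseudogene, and reads of so close a pair can be divided between its members when counts are estimated. The starts of both reading frames are shown because they hold 10 of the bases by which the pair differs. They are coding bases 1 to 120, read 5′ to 3′ from the GENCODE vM21 transcripts, with capitals at the positions where the pair differs. Over the 777 aligned coding bases 28 differ.
Olfr160: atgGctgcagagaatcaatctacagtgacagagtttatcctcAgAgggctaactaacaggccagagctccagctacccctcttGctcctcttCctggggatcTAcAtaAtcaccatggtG
Olfr151: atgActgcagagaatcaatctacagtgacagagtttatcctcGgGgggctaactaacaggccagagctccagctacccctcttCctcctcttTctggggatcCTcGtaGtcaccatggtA

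Across the family, 110 of the 868 tested receptor genes rose with acetophenone and 8 fell. Of all 19514 genes tested 4.22% rose and 1.27% fell, 5.49% in either direction. Of the receptor genes tested 12.7% rose and 0.922% fell. The filter asked for enough counts in 3 of the 12 libraries, so receptor genes near 0 in the controls could enter through their acetophenone level. Such genes could rise but hardly fall, so the rates are not compared further. Without the filter 129 receptor genes rose and 19 fell, and by DESeq2 133 and 21. In all 110 the libraries of the groups did not overlap, against 14.6% of all genes with every acetophenone library above every control. The test itself chose genes whose groups lie apart, so this is a description. The 110 genes had a median log2 change of 3.44 and a range of 1.05 to 7.65. Of them 34 changed over 16-fold, 58 between 4-fold and 16-fold and 18 under 4-fold. The remaining 750 tested receptor genes were not called, and the median change over all 868 was 0.01.

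The levels of the receptors that rose were set out next. Their median level in the controls was 1.18 CPM, beside 1.39 CPM for the other tested receptor genes, and 47 of the 110 lay under 1 CPM. Both medians depend on the filter, through which genes low in the controls could enter by their acetophenone level. They are therefore not compared further. With acetophenone the median of the 110 was 12.1 CPM and their highest mean 184 CPM. Summed over the 110 genes, the level was 384, 393 and 402 CPM in control libraries 1 to 3 and 2382, 3487 and 2136 CPM in acetophenone libraries 1 to 3. These genes carried 11.2% of all receptor CPM in the controls and 48.6% with acetophenone, and since the test chose them these sums are a description. The 976 listed receptor genes that were not called summed to 2847 ± 191 CPM in the controls and 2678 ± 38.6 CPM with acetophenone (SD, n = 3).

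**Figure D1:**
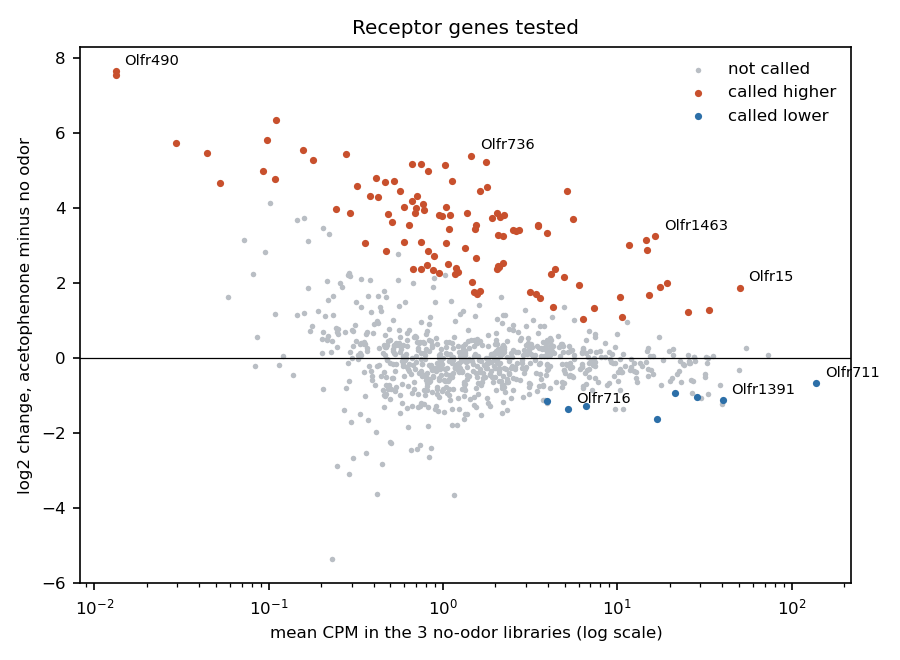
Each point is one of the 868 tested receptor genes, with its mean CPM in the 3 no-odor libraries on a log axis and its log2 change with acetophenone on the vertical axis. The 110 genes called higher (orange) lie between 1.05 and 7.65 and have control means of 0.0132 to 50.3 CPM. The 8 called lower (blue) have control means of 3.95 to 139 CPM.

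The smallest p belonged to Olfr736 (ENSMUSG00000047716), a receptor of family MOR106. Olfr736 stood at 1.35, 1.59 and 1.43 CPM in the controls and 66.4, 64.9 and 53.1 CPM with acetophenone (log2 change 5.40, SE 0.250, adjusted p 8.49e-08 in edgeR). The acetophenone libraries lie close together here, and the lowest of them lies far above the highest control. Olfr1026 went from 0.795, 1.06 and 1.22 CPM to 46.5, 31.0 and 30.9 CPM. Olfr913 went from 1.91, 2.65 and 1.78 CPM to 29.6, 29.3 and 27.1 CPM. These receptors combined a low control level with tight replicates. Olfr143 was nearly silent in the controls, at 0.318, 0.132 and 0.0869 CPM, and reached 8.15, 7.68 and 6.15 CPM. Olfr889 went from 1.03, 0.176 and 1.26 CPM to 29.7, 21.7 and 28.3 CPM.

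The 20 receptor genes with the smallest p, predicted genes and pseudogenes left out, all kept their call in every alternative in which they were tested, whichever library was left out. Apart from those given above they were Olfr491, Olfr1126, Olfr1104, Olfr1283, Olfr745, Olfr895, Olfr1477, Olfr1124, Olfr43, Olfr1047, Olfr30, Olfr749, Olfr376 and Olfr1484, with log2 changes between 2.89 and 5.23. The plot of receptor levels by library shows each of their values. The largest fitted changes among receptor genes, 7.65 for Olfr490 and 7.56 for Olfr904, rest on a single count in the 3 controls together and on the prior count of the model, and are not read as folds. Olfr490 had 4.83, 3.14 and 3.88 CPM with acetophenone, while Olfr904 had 8.32, 2.60 and 0.211 CPM.

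**Figure D2:**
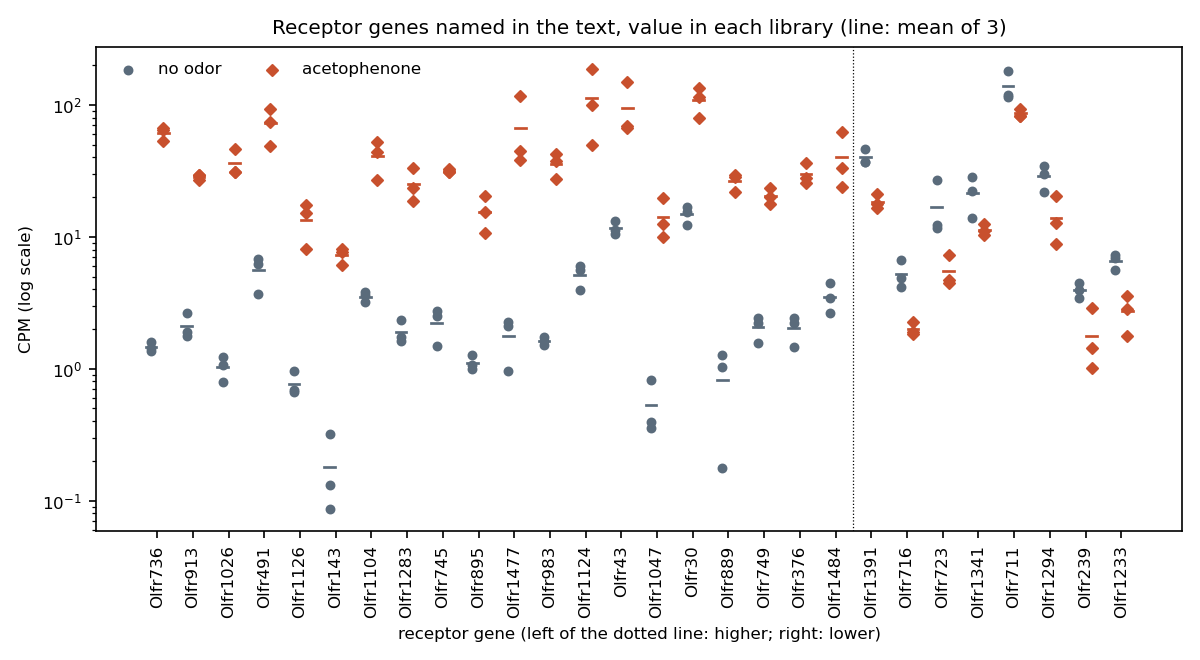
CPM on a log axis in each of the 3 no-odor (grey circles) and 3 acetophenone libraries (orange diamonds) for the 20 receptor genes with the smallest p among those that rose and for the 8 that fell; lines are means of 3. Olfr736 went from 1.35 to 1.59 CPM up to 53.1 to 66.4 CPM, and no gene shown has overlapping groups.

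The receptors were also ranked by CPM gained rather than by p. The 110 genes together gained 2275 CPM on average, and the 10 largest gains made up 40.6% of it. Olfr1463 gained most, from 16.1, 15.7 and 17.8 CPM to 109, 288 and 75.1 CPM. Olfr15 was the most abundant receptor among the 110 in the controls, at 61.9, 43.6 and 45.4 CPM, and reached 142, 316 and 95.1 CPM. Olfr1124 went from 5.56, 3.92 and 5.99 CPM to 49.6, 188 and 100 CPM. In all 3 genes acetophenone library 2, the library with the highest sum of neuronal markers, was the highest. The log2 change of Olfr15 was 1.87 with an SE of 0.353. The remaining genes among the 10 largest gains were Olfr110, Olfr30, Olfr43, Olfr491, Olfr1477, Olfr736 and Olfr136. The number of receptor genes with a mean over 20 CPM was 39 in the controls and 65 with acetophenone.

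The count of receptors that rose moved with single libraries without changing its order of size. It was 82 without acetophenone library 2 and 104 without library 1, the library with the most blood RNA among the acetophenone group, and 82 to 88 without any one control. Of the 110 genes, 81 were called without acetophenone library 2 and 81 without control library 2. All 110 kept a positive change under every other scaling, and 93 kept their call when libraries were scaled to the median of 723 receptor genes counted in every library. A further 3 of 44 tested receptor pseudogenes rose, Olfr1025-ps1, Olfr105-ps and Olfr896-ps1, named because they are few.

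The receptors that rose were next set out by family. Receptor family numbers (MOR) came from RefSeq synonyms and were available for 1059 of 1094 receptor genes. Of 207 families with a tested member, 41 had a member that rose. The 10 families with 4 or more such members held 65 of the 110 genes among their 164 tested members. Over all tested receptor genes 12.7% rose. These 10 families were chosen by their count of genes that rose, so their high share follows from the choice. In family MOR106, 10 of 13 members rose, Olfr736, Olfr738, Olfr739, Olfr740, Olfr742, Olfr743, Olfr744, Olfr745, Olfr748 and Olfr749. Olfr741, Olfr746 and Olfr747 of the same family did not pass the test. Olfr741 lay above the controls all the same, at 25.1, 21.6 and 29.5 CPM against 17.7, 14.4 and 20.1 CPM (log2 change 0.55, adjusted p 0.0995 in edgeR).

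Families MOR202 and MOR204 followed, with 10 of 21 and 9 of 19 members higher. MOR161 holds the known receptor Olfr145, and 5 of its 6 tested members rose. MOR162 holds Olfr983, and 5 of 7 rose. In MOR164, which holds Olfr923, all 3 tested members rose. Olfr918 of this family went from 0.119, 0 and 0.174 CPM to 7.27, 5.79 and 4.64 CPM, and Olfr147 from 0.994, 0.705 and 1.56 CPM to 14.4, 11.7 and 9.48 CPM. In MOR171, which holds Olfr160, only 4 of 23 did. The known acetophenone receptors thus lie in small families of which most tested members rose and in a larger family of which most did not. MOR256, the largest of the 10 families with 44 tested members, had 8 higher and 1 lower. No test was made between families, and the shares are a description.

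**Figure D3:**
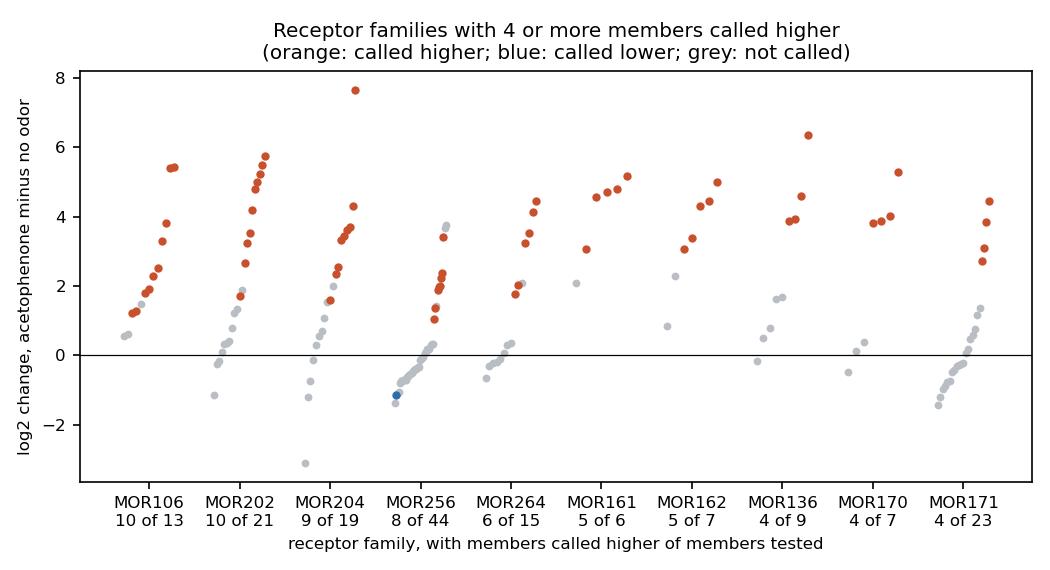
Log2 change of each tested member of the 10 receptor families with 4 or more members called higher, each family in rising order, with the count under its name (orange, higher; blue, lower; grey, not called). In MOR106, 10 of 13 members are higher, whereas in MOR256 and MOR171 most of the 44 and 23 members lie near 0.

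Members that rose also lay beside each other in the genome. Of the 110 genes, 62 (56.4%) had a neighbouring tested receptor gene that rose, against 119 of the other 758 (15.7%). Unbroken runs were Olfr1461, Olfr1463, Olfr1466, Olfr1467 and Olfr1469 on chromosome 19 and Olfr472, Olfr473, Olfr476, Olfr477 and Olfr478 on chromosome 7. On chromosome 14 the MOR106 genes Olfr736, Olfr738, Olfr739 and Olfr740 formed a run, and so did Olfr742, Olfr743, Olfr744 and Olfr745, with Olfr741 between them. Chromosome 9 had the highest share among chromosomes with over 10 tested receptors, 26 of 85, and chromosomes 14 and 19 had 10 of 39 and 10 of 49. Chromosome 2, which carries most receptor genes, had 28 of 227, and chromosome 10 had 1 of 59. Neighbours in a receptor cluster are usually also close in sequence, so position and relatedness are not separate measures here.

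Genes that rose also had relatives that rose. Each receptor gene was paired with its closest relative by transcript alignment. Genes that are each other's closest relative are both counted, so the counts are of genes and not of separate pairs. Where the relative was 85% to 95% identical, 27 of 39 genes that rose had a relative that rose too, against 14 of 207 genes that did not rise. For relatives of 95% identity or more the shares were 10 of 22 and 12 of 162, and for 70% to 85% they were 7 of 16 and 12 of 121. Between nearly identical copies, reads that match both are divided by estimation, which bears on all values above 95%. With every receptor that has such a copy left out, 81 receptor genes rose and 6 fell.

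The coding stretches that follow are of nearly identical receptors of which only some were called, shown because they give the bases by which members differ. Olfr43 went from 11.3, 10.5 and 13.3 CPM to 68.9, 150 and 66.9 CPM (log2 change 3.02, SE 0.278, adjusted p 4.66e-05 in edgeR). Its closest relative Olfr403 stood at 1.83, 2.07 and 3.04 CPM in the controls and 3.23, 1.39 and 1.05 CPM with acetophenone, and its libraries overlap. Over 942 aligned coding bases 12 differ, and the stretch shown, coding bases 268 to 387 of Olfr43 and 325 to 444 of Olfr403, holds 6 of them in capitals.
Olfr43: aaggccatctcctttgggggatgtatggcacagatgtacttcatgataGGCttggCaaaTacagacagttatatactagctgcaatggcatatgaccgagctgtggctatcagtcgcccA
Olfr403: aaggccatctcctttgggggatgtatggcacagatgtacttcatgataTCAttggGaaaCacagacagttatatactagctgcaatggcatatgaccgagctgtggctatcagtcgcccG

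Within family MOR202, Olfr1477 and Olfr1484 rose and Olfr1487 was not called. Olfr1477 went from 2.11, 2.25 and 0.956 CPM to 44.6, 117 and 38.5 CPM, and Olfr1484 from 2.62, 3.44 and 4.43 CPM to 33.3, 62.9 and 24.0 CPM. Olfr1487 had 1.03, 1.06 and 0.738 CPM in the controls and 0.588, 0.808 and 0.969 CPM with acetophenone. Olfr1477 and Olfr1484 differ at 33 of 948 aligned coding bases. At 31 further positions they share a base and Olfr1487 differs. Coding bases 436 to 555 of Olfr1477 and Olfr1487 and 487 to 606 of Olfr1484 hold 13 variable positions, in capitals, of which 11 set Olfr1487 apart.
Olfr1477: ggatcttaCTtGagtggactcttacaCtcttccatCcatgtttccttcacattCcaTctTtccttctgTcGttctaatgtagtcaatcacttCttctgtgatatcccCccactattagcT
Olfr1484: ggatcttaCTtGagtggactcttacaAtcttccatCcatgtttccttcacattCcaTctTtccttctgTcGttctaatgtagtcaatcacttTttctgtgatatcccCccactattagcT
Olfr1487: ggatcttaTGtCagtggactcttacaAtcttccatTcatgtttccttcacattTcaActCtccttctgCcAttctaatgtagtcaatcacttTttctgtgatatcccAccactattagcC

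In MOR106 the same contrast lies between Olfr749, which rose, and Olfr747, which was not called. Olfr749 went from 2.23, 2.42 and 1.56 CPM to 23.3, 17.8 and 19.9 CPM. Olfr747 had 1.07, 2.07 and 2.30 CPM in the controls and 2.52, 4.67 and 1.14 CPM with acetophenone. The genes differ at 16 of 942 coding bases, of which 7 lie in coding bases 656 to 775, in capitals. The difference in response within these pairs was not tested, and the pairs were chosen after their values were seen.
Olfr749: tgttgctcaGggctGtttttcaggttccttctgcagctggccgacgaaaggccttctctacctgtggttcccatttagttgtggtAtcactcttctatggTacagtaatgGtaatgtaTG
Olfr747: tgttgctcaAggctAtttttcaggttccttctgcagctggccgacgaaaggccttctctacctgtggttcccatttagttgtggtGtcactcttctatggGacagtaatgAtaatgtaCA

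Mouse olfactory receptors fall into class I, the fish-like class, and the larger class II. By family number, 1 of 86 tested class I genes rose and 108 of 753 class II genes did, and the remaining gene that rose, Olfr30, had no family number. The class I gene was Olfr556, at 1.47, 1.28 and 3.43 CPM in the controls and 13.7, 11.3 and 8.68 CPM with acetophenone (log2 change 2.44, SE 0.435, adjusted p 0.00523 in edgeR). The median change over class I was -0.36 and over class II 0.07. Of 7 tested trace amine receptors, a separate family of amine receptors in the same tissue, 0 rose and 0 fell in edgeR, with 0 at an unadjusted p under 0.05 and 0 by DESeq2. Of the 226 receptor genes with too few counts to test, 28 had 0 counts in all 12 libraries, 79 had a higher mean with acetophenone and 107 a lower one, and none exceeded a mean of 0.532 CPM with acetophenone.

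The 8 receptor genes that fell had control means of 3.95 to 139 CPM, and their log2 changes lay between -0.68 and -1.62. Olfr711 was the most abundant, at 181, 115 and 119 CPM in the controls and 82.9, 82.9 and 93.9 CPM with acetophenone (log2 change -0.68, SE 0.162, adjusted p 0.0259 in edgeR). Olfr1391 went from 36.9, 46.7 and 37.1 CPM to 17.6, 16.5 and 21.0 CPM, a change of -1.13. Olfr723 went from 26.8, 11.8 and 12.3 CPM to 4.75, 4.49 and 7.25 CPM. In each of the 8 the groups did not overlap, against 11.2% of all genes with every acetophenone library below every control. Here too the test chose the genes, and this is a description. The others were Olfr716, Olfr1341, Olfr1294, Olfr239 and Olfr1233, with changes of -0.93 to -1.38.

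The falls differed in how far they rested on single libraries. Olfr1391 and Olfr716 kept their call in all alternatives, whereas Olfr1233, Olfr1294, Olfr1341, Olfr239, Olfr711 and Olfr723 each lost it without at least 1 single library. Without control library 1, for example, Olfr711 stood at -0.44 and Olfr723 at -1.13, and neither was called. Closest to the threshold on its inner side were Olfr239 and Olfr1233, at adjusted p of 0.0438 and 0.046 in edgeR. Just outside were Olfr346 and Olfr1312, at log2 changes of 1.69 and 1.26 with adjusted p of 0.0506 and 0.0508.

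The decanal libraries of the set gave a comparison of acetophenone with another odorant that uses no control library. Decanal is an aliphatic aldehyde. The groups also differed in the makeup of their RNA. Red blood cell genes summed to 40822 to 43787 CPM with decanal, against 3381 to 14122 CPM with acetophenone. Cytosolic ribosomal protein genes summed to 20779 to 21530 CPM with decanal and 10719 to 14431 CPM with acetophenone. The sums of mature neuron markers overlapped, at 19384 to 20396 CPM with decanal. The part of these differences in the values below was not tested. Over all genes 16.5% were higher with acetophenone than with decanal and 12.9% lower, and among receptor genes 184 were higher and 85 lower. Of the 110 receptor genes that rose over the controls, 107 also lay above decanal and 1 below it. Both comparisons use the same 3 acetophenone libraries, in which these genes were chosen for being high, so this count is a description and no separate evidence. Olfr736 had 0.767, 0.920 and 0.443 CPM with decanal, and its difference, acetophenone minus decanal, was 6.43 (SE 0.277, adjusted p 5.13e-09 in edgeR). The exceptions were Olfr123, which was lower with acetophenone by a log2 difference of -0.86, and Olfr1384 and Olfr1085, whose differences of -0.22 and 1.12 did not pass the test (adjusted p 0.499 and 0.172 in edgeR).

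Decanal and acetophenone were each also compared with the same 3 controls, so the following values stand side by side and share those libraries. Decanal against control called 10.8% of all genes higher and 11.5% lower. Of the 110 acetophenone receptors, 5 were also higher with decanal, Olfr1085, Olfr1126, Olfr123, Olfr1283 and Olfr1384, and 9 were lower. Olfr1126 had 4.70, 3.83 and 3.60 CPM with decanal and 8.15, 17.3 and 15.1 CPM with acetophenone, and its direct difference was 1.74. Among the 8 receptor genes that fell with acetophenone, Olfr716 and Olfr239 rose with decanal and the other 6 fell. Olfr716 stood at 4.85, 4.14 and 6.65 CPM in the controls, 1.85, 1.89 and 2.28 CPM with acetophenone and 121, 159 and 134 CPM with decanal. Its direct difference of -6.10 had an adjusted p of 1.31e-09 in edgeR.

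Beyond the receptors, 713 genes rose and 240 fell, and under receptor-based scaling 54 rose and 137 fell, so that the balance of directions turned with the scaling. Under the scaling used throughout, their changes had a median of 0.57 among those that rose and -0.76 among those that fell, and 55 and 77 of them passed 2-fold. The largest fitted change among them, 8.40 for the predicted gene Gm6619, had an SE of 2.14. Receptor-based scaling, to the median of receptor genes as above, moved the median gene from 0.00 to -0.14 and gave 147 genes higher and 145 lower over all genes, in place of 823 and 248. For that reason the number of members called under that scaling is given for most gene lists below.

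The genes of the transduction cascade, which turn receptor binding into a current, rose nearly as a whole. Of 14 tested, 12 rose and none fell, with a median log2 change of 0.84 beside 0.00 over all genes tested. Gnal (ENSMUSG00000024524), the olfactory G protein alpha subunit, stood at 1151, 906 and 1065 CPM in the controls and 2486, 2576 and 1978 CPM with acetophenone (log2 change 1.17, SE 0.109, adjusted p 4.66e-05 in edgeR). Ric8b, the exchange factor and chaperone of that subunit, went from 525, 481 and 511 CPM to 929, 1283 and 942 CPM. Adcy3, the adenylyl cyclase, went from 502, 399 and 470 CPM to 684, 1160 and 787 CPM. Every acetophenone library exceeded every control in these 3 genes. Cnga2, the main channel subunit, changed by 0.81 and its partners Cnga4 and Cngb1 by 0.93 and 0.87. Ano2, the calcium-activated chloride channel, changed by 0.91 and Omp by 0.88. Gng13 and the calcium exchanger Slc24a4 did not pass the test, at 0.63 and 0.30.

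Under receptor-based scaling, 2 of the 14 were called, Gnal and Ric8b, and the list's median was 0.71. The mature neuron markers, which share most of these genes, had 11 of 14 higher and 2 under that scaling. Against decanal 9 of the 14 cascade genes were higher with acetophenone and 1, Gng13, was lower, and 4 and 1 under receptor-based scaling. Gnal differed from decanal by 0.83 (adjusted p 9.6e-05 in edgeR), whereas Omp did not pass that test, at -0.17 (adjusted p 0.405 in edgeR).

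**Figure D4:**
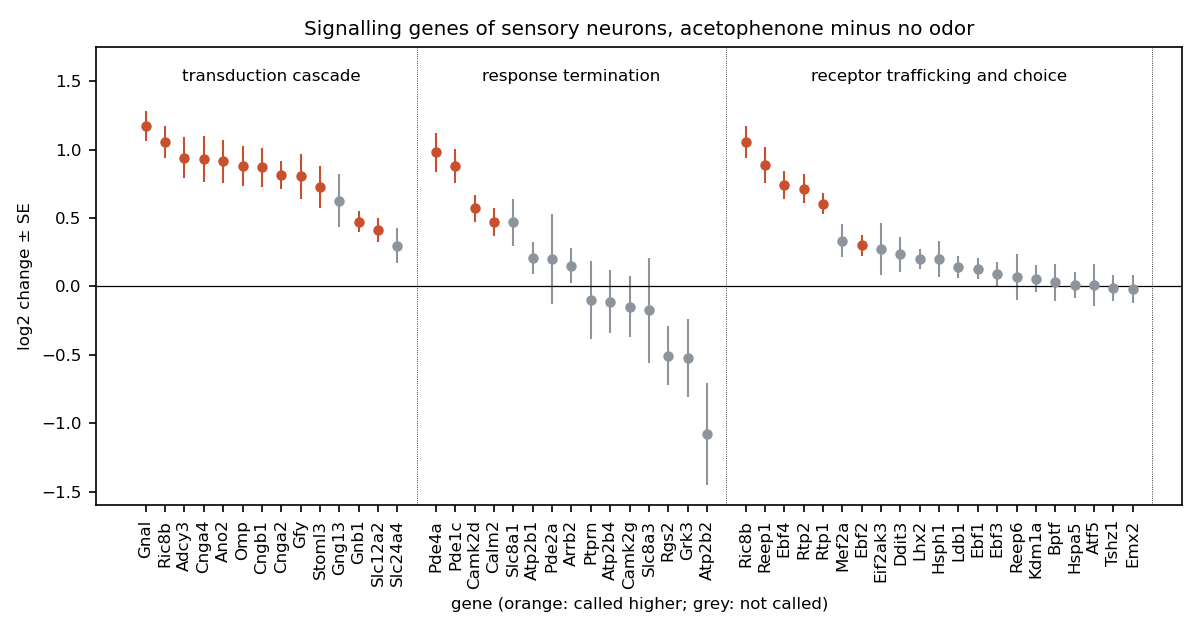
Log2 change with acetophenone ± SE for tested genes of the transduction cascade, response termination, and receptor trafficking and choice, in falling order within each list (orange, called higher; grey, not called). Of the 14 cascade genes 12 are called, and Gnal and Ric8b lie highest among them; 1 gene of the second list is not drawn. Ric8b stands in the first and the last list.

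Among 16 genes that end or adapt the response, 5 rose and none fell, with a median of 0.17. Pde1c, the phosphodiesterase of sensory cilia, went from 257, 199 and 217 CPM to 355, 504 and 380 CPM, and Pde4a, found in the rest of the neuron, from 324, 291 and 332 CPM to 512, 816 and 539 CPM. Calm2, which encodes the calcium sensor calmodulin, and the kinase gene Camk2d rose by 0.47 and 0.57. The receptor kinase Grk3 and the arrestin Arrb2 did not pass the test, at -0.52 and 0.15. The count was 3 without acetophenone library 2 or control library 3, and 1, Pde4a, under receptor-based scaling. Without control library 2 it was 3 higher and 1 lower, and by DESeq2 5 higher and 1 lower.

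Of 21 genes of receptor trafficking and receptor choice, 6 rose, with a median of 0.20. The receptor-transporting proteins Rtp1 and Rtp2, which carry receptors to the cell surface, were among them. Rtp1 went from 557, 509 and 543 CPM to 802, 896 and 751 CPM and Rtp2 from 312, 308 and 310 CPM to 468, 614 and 446 CPM. Reep1, Ebf4, Ebf2 and Ric8b also rose. The choice regulators Lhx2, Ldb1 and Emx2 lay at 0.20, 0.14 and -0.02 and were not called. Under receptor-based scaling 3 were called, Ric8b, Reep1 and Ebf4.

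Immediate early genes, which are transcribed within minutes of neuronal activity, changed in part. Of 35 tested, 6 rose and 1 fell, with a median of 0.15. Fosb rose most, from 3.26, 1.499 and 2.22 CPM to 7.77, 18.1 and 14.5 CPM (log2 change 2.52, SE 0.372, adjusted p 0.00163 in edgeR). Nr4a1 went from 62.8, 32.9 and 43.0 CPM to 75.9, 172 and 150 CPM. In both, acetophenone library 1 was the lowest of its group. Dusp14, Dusp5, Maff and Egr4 rose by 1.06, 0.75, 1.02 and 1.29. The fall was in Fosl2, from 15.8, 16.4 and 21.4 CPM to 8.65, 6.96 and 8.64 CPM. Fos itself lay at 29.0, 39.5 and 45.5 CPM in the controls and 44.1, 54.0 and 71.9 CPM with acetophenone, where the groups overlap (log2 change 0.58, adjusted p 0.101 in edgeR). Egr1 and Arc did not pass the test either, at 0.29 and 0.15. Without control library 2 the count was 3 higher and 1 lower, and under receptor-based scaling 2 and 2. Against decanal, 3 of the 35 were higher with acetophenone and 8 lower. Fosb, Nr4a1 and Dusp14 showed no difference from decanal that passed the test, at -0.09, -0.24 and -0.13. Dusp5 was higher than with decanal, at 0.60, and Fosl2 lower, at -1.23.

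Genes reported to follow the activity of olfactory neurons over longer times gave 10 higher and 1 lower of 23, with a median of 0.25. Heg1 stood out, from 21.4, 20.1 and 24.9 CPM to 62.9, 78.1 and 51.2 CPM (log2 change 1.53, SE 0.151, adjusted p 6.8e-05 in edgeR). Lrrc3b went from 164, 126 and 126 CPM to 251, 460 and 257 CPM, and the neuropeptide gene Cartpt from 51.3, 52.3 and 55.0 CPM to 96.9, 122 and 86.3 CPM. Heg1 and Lrrc3b showed no difference from decanal that passed the test, at -0.09 and -0.33, whereas Cartpt was lower than with decanal (log2 difference -0.996). S100a5, a well-known activity-dependent gene, lay at 1109, 1236 and 1158 CPM in the controls and 713, 1865 and 1119 CPM with acetophenone and was not called. The regulator of G protein signalling Rgs4 fell, from 4.69, 4.06 and 4.91 CPM to 2.10, 2.29 and 1.22 CPM, and it was not called without any one of the 6 libraries. The number called higher was 5 without acetophenone library 2 or control library 2, 6 without control library 3 and 2 under receptor-based scaling.

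Of 24 genes of axon guidance and sorting, 8 rose and none fell, with a median of 0.41. They were Cntn4, Pcdh10, Pcdh17, Kirrel2, Kirrel3, Plxna3, Nrp1 and Sema7a. Kirrel2 and Kirrel3 are adhesion molecules through which axons of like neurons sort into glomeruli. Kirrel3 went from 27.2, 22.9 and 28.4 CPM to 51.8, 78.3 and 38.0 CPM, and Kirrel2 from 359, 284 and 319 CPM to 370, 974 and 496 CPM. This list leaned on single libraries, with 1 called without acetophenone library 2 or control library 2, 2 without control library 3, 5 without control library 1 and 1 under receptor-based scaling.

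Markers of other cells of the tissue were set beside these neuronal lists. Of 12 markers of neuronal precursors, 9 of horizontal basal cells, 16 of sustentacular cells and 10 of microvillar cells, 0 were called in edgeR. At an unadjusted p under 0.05 these lists had 1, 0, 5 and 1, and by DESeq2 0, 0, 3 and 0. Over all 19514 genes tested, 2408 were higher and 1621 lower at that unadjusted p. Counts this small are therefore not read as results about these lists. Without acetophenone library 1, 1 horizontal basal and 3 sustentacular markers were called higher. Immature neurons had 1 higher, Stmn4, and 1 lower, Gng8, of 14, and neither was called without acetophenone library 2. The summed level of sustentacular markers was 9119 to 9895 CPM in the controls and 7699 to 9783 CPM with acetophenone, so the groups overlap, whereas that of mature neuron markers did not overlap, as given above.

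Of 70 tested enzymes that metabolize odorants and other small molecules, 3 rose and 2 fell, and the median was -0.25. These 3 are a share close to the 4.22% of all genes that rose. Sult1d1, a sulfotransferase, went from 230, 215 and 210 CPM to 477, 522 and 391 CPM. Nqo1, a quinone reductase, went from 84.8, 111 and 109 CPM to 421, 404 and 287 CPM (log2 change 1.87, SE 0.242, adjusted p 0.000591 in edgeR), and its change with decanal from the same controls was 1.88. These 2 kept their call in all alternatives. Txnrd1, Hmox1 and Gstp1 were called at 0.32, -0.35 and -0.49 and lost the call under several. By DESeq2 the list had 4 higher and 11 lower.

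Genes of motile cilia gave 9 higher and none lower of 60 tested, with a median of 0.27. Spef2 went from 97.3, 76.2 and 78.1 CPM to 195, 197 and 173 CPM, and Vwa3a from 39.7, 35.8 and 33.2 CPM to 69.3, 80.3 and 71.5 CPM. Cfap69, Ccdc40, Drc1, Rsph4a, Vwa3b, Ccdc39 and Lrrc6 rose by 0.50 to 0.85. Foxj1, the transcription factor that defines motile ciliated cells, lay at 131, 120 and 129 CPM in the controls and 83.3, 146 and 149 CPM with acetophenone (log2 change -0.01), and Tekt1, a structural marker of the same cells, at 0.33, and neither was called. The summed list was 2259 to 2546 CPM in the controls and 2599 to 3431 CPM with acetophenone. The count was 5 without control library 3, 14 without acetophenone library 1 or by DESeq2, and 2, Spef2 and Vwa3a, under receptor-based scaling.

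Genes of bone and of osteoclasts, the bone-resorbing cells, made up the list with most genes that fell. Of 30 tested, 14 fell and 1 rose, with a median of -0.61, and 9 fell without acetophenone library 2. With receptor-based scaling 12 fell. The summed list was 7807 to 9894 CPM in the controls and 6516 to 9221 CPM with acetophenone, so the groups overlap. Ctsk (ENSMUSG00000028111), the main collagen-degrading protease of osteoclasts, went from 367, 427 and 426 CPM to 160, 125 and 124 CPM (log2 change -1.57, SE 0.164, adjusted p 0.000104 in edgeR). Acp5, the osteoclast acid phosphatase, went from 280, 332 and 331 CPM to 117, 88.1 and 78.6 CPM, and Mmp9 from 125, 171 and 154 CPM to 59.6, 55.05 and 55.6 CPM. In all 3 the groups lie well apart. Calcr, the calcitonin receptor of osteoclasts, had 1.11, 1.499 and 0.434 CPM in the controls and 0 in all 3 acetophenone libraries, at least 23.7-fold lower against 3 counts over the group. Jdp2, Dcstamp, Oscar, Itgb3, Atp6v0d2, Mmp13, Mmp14, Spp1, Dmp1 and Postn also fell. The osteoblast genes Col1a1, Sp7 and Runx2 were not called, at 0.47, 0.19 and -0.12. The member that rose was Nfatc1, which is a regulator of osteoclasts among other cells, from 190, 176 and 179 CPM to 321, 431 and 283 CPM.

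Fat cell genes fell too, 4 of 10 tested, at low levels. Fabp4 went from 3.62, 2.65 and 4.87 CPM to 0.294, 0.584 and 0.169 CPM and Adipoq from 1.47, 1.15 and 1.22 CPM to 0.126, 0.180 and 0.211 CPM. Lpl and Cfd also fell. The summed fat list, which more abundant genes dominate, was 455 to 475 CPM in the controls and 303 to 605 CPM with acetophenone and overlapped. Of 20 red blood cell genes 0 were called in edgeR, and 14 were called lower without acetophenone library 1. At an unadjusted p under 0.05, 12 of the 20 were lower, beside 1621 of all 19514 genes tested. By DESeq2 3 were lower. The beta-globin gene Hbb-bs stood at 6091, 8005 and 6066 CPM in the controls and 5018, 975 and 1080.1 CPM with acetophenone, so that library 1 lay close to the controls. The macrophage genes Cd68 and Tyrobp (of 12 tested), the neutrophil gene Ngp (of 16), the glial gene Fabp7 (of 11) and the gland gene Scgb1c1 (of 22) were called lower. They were the only called members of their lists, and over all genes tested 1.27% fell. The list medians were -0.33, -0.83, -0.58 and -0.39, and 0, 0, 0 and 8 members had a positive change. Only Cd68 kept its call with each library left out in turn. Bone, fat and blood are not part of the labelled tissue, and the part that tissue makeup has in these falls was not tested.

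**Figure D5:**
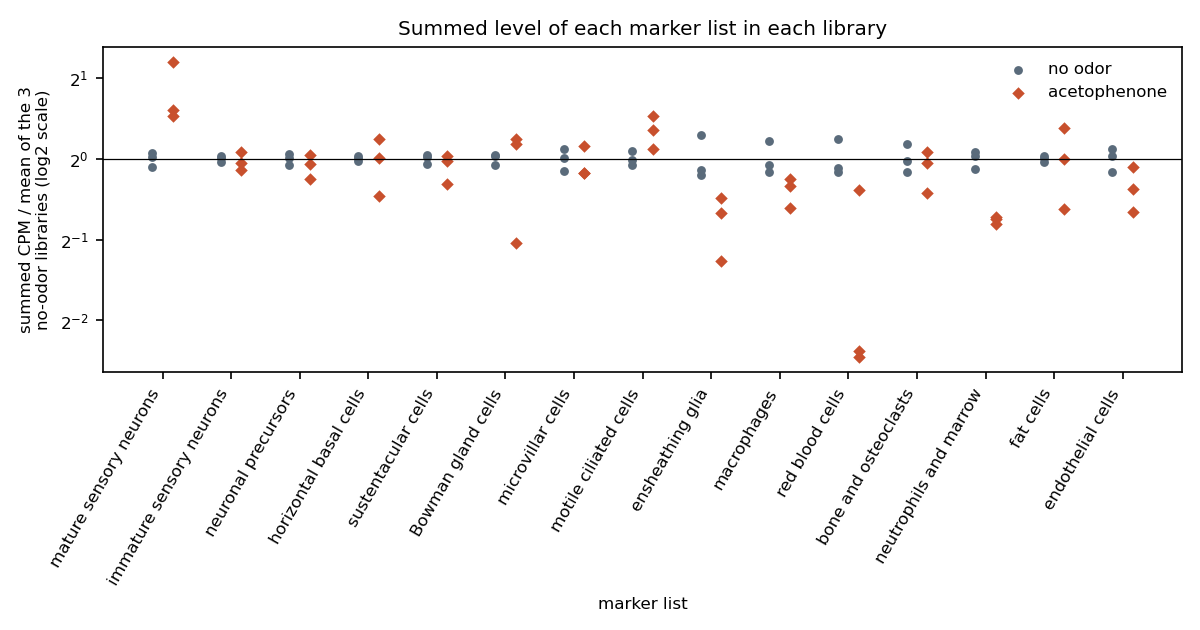
Summed CPM of each marker list in each library, divided by the mean of the 3 no-odor libraries (log2 scale; grey circles, no odor; orange diamonds, acetophenone). Mature sensory neuron markers lie above all controls in every acetophenone library, and red blood cell genes are lowest in acetophenone libraries 2 and 3.

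Of 76 ribosomal protein genes 2 fell, Rpl11 and Rpl35a, and of 18 heat shock chaperones 1 rose, Hspa4l. Of 20 interferon-stimulated genes Ifit1 rose and Ifi27 fell, and all these changes were less than 2-fold. Over all genes tested 4.22% rose and 1.27% fell, so counts this small are not read as results about the lists. Under receptor-based scaling or without acetophenone library 2, 0 genes of these 3 lists were called. The ribosomal list had a median of -0.17, with 6 lower by DESeq2, 8 without acetophenone library 3 and 0 without any other single library. Of 11 tested markers of non-canonical sensory neurons and 12 of endothelial cells 0 were called in edgeR. At an unadjusted p under 0.05 they had 3 and 2, and by DESeq2 1 and 0. At that unadjusted p 2408 of all 19514 genes were higher and 1621 lower.

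Further genes were named by rank alone, except Umodl1, which is also on the list of mature sensory neuron markers. Umodl1 rose from 206, 175 and 198 CPM to 394, 600 and 434 CPM. Sgpl1, the sphingosine phosphate lyase, rose by 0.87, Fstl5 by 0.72, Glb1l2 by 0.77 and Rp2 by 0.95. Bmp6, a bone morphogenetic protein, went from 11.9, 12.4 and 13.2 CPM to 23.9, 33.0 and 25.1 CPM, and its difference from decanal, -0.24, did not pass the test. Among genes that fell, Arrb1, a beta-arrestin, went from 15.5, 15.7 and 17.03 CPM to 8.61, 7.18 and 7.16 CPM, and Rgs10 from 13.4, 17.4 and 16.1 CPM to 8.69, 6.74 and 6.66 CPM. Capg, Slc37a2, Pstpip1 and S100a10 fell by 1.15, 1.15, 1.36 and 1.08 on the log2 scale.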

How the data were processed

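The authors deposited expected counts per gene (estimated counts, 11.7% to 12.6% of all values in a library fractional) from pS6 immunoprecipitates. The submitters' processing notes list GRCm39 as the build, Salmon 1.10.1 and STAR 2.7.10b as tools, besides R 4.4.2, and the annotation is not given in the sources used here. Counts were rounded. Genes with enough counts by filterByExpr (minimum count 10) were fitted with edgeR 4.0.16 (R 4.3.3, TMM scaling, glmQLFit and glmQLFTest, 2-sided) over the 12 libraries of the set, and Benjamini-Hochberg adjusted p under 0.05 over all genes tested was called. The scripts were tested on simulated data. Symbols came from GENCODE vM21 for 52029 of the identifiers, and the 4981 without a symbol held 0.321% to 0.447% of counts. As GENCODE vM21 is on GRCm38, no coordinates are printed. Receptor families came from RefSeq synonyms (class I up to family 42), and copies and relatives from blastn 2.17.0. A copy was at least 95% identical over 200 bases.

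The members and gene lists were chosen with earlier results of these data known. Named were called genes without overlap between groups: the 20 receptor genes that rose and up to 8 that fell with the smallest p, 12 other genes each way, up to 4 members per list and direction, and the known acetophenone receptors. Predicted genes and pseudogenes were left out of the ranks. Further members of lists and families were named as counts needed them. Alternatives were DESeq2 1.42.0, RLE scaling, receptor-based scaling (median ratio over receptor genes), no filter, only the compared libraries, a replicate block, each library left out, and receptors with copies left out. Replicate numbers were checked and did not pair the libraries. The values of 1 gene of the response termination list are not reported here.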

Additional observations from a re-analysis of the deposited data

How the results depend on the processing

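The count over all genes against control, 1071, was 1877 by DESeq2 (1268 higher and 609 lower), 585 with only the 6 libraries compared (396 and 189) and 292 under receptor-based scaling (147 and 145). It ran from 386 to 1175 with each library left out in turn, and was 386 without acetophenone library 2, 396 without control library 2 and 453 without control library 3. The share of calls that were higher was 76.8%, 64.2% without a filter on low counts and 50.3% under receptor-based scaling. Receptor genes gave 87 to 154 calls under all alternatives, 118 in the comparison as reported and 87 to 126 with each library left out. Acetophenone against decanal gave 3980 to 6202 calls around 5749, and receptor-based scaling turned its split to 1156 higher and 2824 lower. The replicate block gave 769 calls over all genes, 112 among receptors and 5262 against decanal. Libraries of the same number did not deviate together (correlations of -0.01, -0.10 and 0.05), and acetophenone library 1 went best with control library 2, so the numbers are read as names. Of 99 named genes that were called, 57 kept the call in every alternative and none reversed. Precision rests on 3 libraries a group, and of the receptors without a test none passed a mean of 0.909 CPM in the controls.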
